A study of Mus musculus with 2 samples.

Results

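The genes described here encode the machinery that copies DNA and supplies its building blocks. They comprise 44 genes for replication licensing, the replicative helicase, polymerases, the sliding clamp and its loader, the single-strand binding protein RPA, flap processing and ligation, deoxynucleotide synthesis and chromatin assembly behind the fork. They were chosen by name, for their function, at a time when earlier results of these arrays were known. All 44 were measured, each by at least 1 probe set that the platform annotation assigns to that gene alone, among 19946 genes on the array. Dermal cells from the back skin of newborn C57BL/6 mice were cultured in serum-containing medium for 24 h and then transfected for 48 h at 10 nM, with a control small interfering RNA (siRNA) in 1 group and with siRNAs against β-catenin in the other. Such duplexes guide the cleavage of transcripts with a matching sequence. Each group had 1 array, so 2 in all, and both groups were transfected. The sequences and number of the siRNAs, and whether pups were pooled, are not stated in the sources used here. No sorting of the cells is described, so either array may read a mixture of dermal cell types.

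Before S phase, the origin recognition complex marks replication origins, and Cdc6 and Cdt1 load the ring-shaped MCM helicase onto them. In S phase the helicase is switched on by Cdc45 and the GINS complex, primase and polymerase α start each strand, and polymerases δ and ε extend them while held on DNA by the sliding clamp PCNA. Many of these genes are transcribed in a burst at the G1/S boundary under E2F transcription factors, which is why their transcripts are widely used as a readout of proliferation. β-catenin links cadherins to actin at cell junctions and, in the nucleus, carries out the transcriptional response to canonical Wnt ligands, a pathway that controls proliferation in many tissues. The comparison asks whether transcripts of the replication machinery differ when the β-catenin transcript is reduced.

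Matches to E2F-type letters are shown first. The genes were not selected on their promoter sequence, but many are known to be transcribed under E2F factors. The share holding such letters is therefore not independent of the choice of genes. RefSeq promoters (GRCm38.p6, 250 bases before to 50 after a transcript start) were found for 37 of the 44 genes, as 44 windows. Mcm4, Gins1, Gins2, Gins4, Prim2, Pole and Rfc2 had no entry. The words TTTCCCGC, TTTGGCGC and TTTCGCGC were searched on both strands. At least 1 of them was found for 14 of the 37 genes (37.8%), against 467 of 15619 array genes with a promoter entry (2.99%). TTTCCCGC was held by 6 of the 37 genes and by 1.76% of array genes. The corresponding values were 6 and 0.832% for TTTGGCGC, and 7 and 0.519% for TTTCGCGC. The 14 genes were Orc1, Cdc6, Cdt1, Mcm3, Mcm5, Mcm6, Mcm7, Gins3, Pola1, Pold1, Pole2, Rfc3, Lig1 and Uhrf1. They held 18 separate stretches, of which 10 began before the transcript start, by at most 185 bases, and 8 at or after it, by at most 39 bases. In Mcm5 and Mcm6 a pair of words overlapped into a stretch of 12 bases. The stretches of licensing and initiation genes that lay before the start are printed 5′ to 3′ on the strand of the gene, with the matched letters in capitals and up to 20 bases on each side.
Orc1, chr4:108579407-108579453, plus strand, 27 bases before the start: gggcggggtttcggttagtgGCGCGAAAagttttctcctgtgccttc
Cdc6, chr11:98907993-98908040, plus strand, 138 bases before the start: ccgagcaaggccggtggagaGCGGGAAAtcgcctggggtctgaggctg
Mcm5, chr8:75109336-75109387, plus strand, 153 bases before the start: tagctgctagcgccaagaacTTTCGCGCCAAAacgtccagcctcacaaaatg
Mcm6, chr1:128359784-128359835, minus strand, 110 bases before the start: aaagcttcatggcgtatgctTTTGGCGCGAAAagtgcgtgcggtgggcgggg
Mcm6, chr1:128359725-128359772, minus strand, 47 bases before the start: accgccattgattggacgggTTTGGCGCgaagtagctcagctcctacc
Mcm7, chr5:138172021-138172068, minus strand, 165 bases before the start: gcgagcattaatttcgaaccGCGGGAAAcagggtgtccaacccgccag
Gins3, chr8:95633498-95633545, plus strand, 41 bases before the start: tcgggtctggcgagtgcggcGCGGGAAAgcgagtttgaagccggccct
Pola1, chrX:93632266-93632313, minus strand, 138 bases before the start: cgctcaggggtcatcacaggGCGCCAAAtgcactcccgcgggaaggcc
The 12-base stretches of Mcm5 and Mcm6 are the reverse complement of each other. Mcm7 held a further match after its start. A match of letters is a description and no evidence that a factor was bound.

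The 250 bases before the start are printed for the genes with the largest positive difference between the arrays, Prim1, the largest negative difference, Tyms, and the highest mean array value, Rrm1. Capitals mark CCAAT, the box bound by the factor NF-Y, searched on both strands. None of these 3 windows held any of the E2F-type words.
Prim1, chr10:128014965-128015214, plus strand: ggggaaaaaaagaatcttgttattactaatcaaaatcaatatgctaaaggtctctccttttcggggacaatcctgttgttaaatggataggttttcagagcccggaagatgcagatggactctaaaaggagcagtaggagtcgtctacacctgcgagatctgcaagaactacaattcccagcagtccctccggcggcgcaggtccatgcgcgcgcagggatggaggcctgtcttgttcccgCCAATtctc
Tyms, chr5:30073626-30073875, minus strand: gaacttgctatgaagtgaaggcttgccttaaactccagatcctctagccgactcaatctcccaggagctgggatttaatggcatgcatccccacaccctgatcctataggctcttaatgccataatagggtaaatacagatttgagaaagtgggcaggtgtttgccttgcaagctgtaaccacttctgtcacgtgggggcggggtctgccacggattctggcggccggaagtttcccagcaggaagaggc
Rrm1, chr7:102441445-102441694, plus strand: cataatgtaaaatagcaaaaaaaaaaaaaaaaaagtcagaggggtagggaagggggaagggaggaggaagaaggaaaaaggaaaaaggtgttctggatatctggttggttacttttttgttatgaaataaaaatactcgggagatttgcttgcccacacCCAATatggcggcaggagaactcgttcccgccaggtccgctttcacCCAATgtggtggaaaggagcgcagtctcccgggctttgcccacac
CCAAT lay 9 bases before the start in Prim1, and 91 and 45 bases before it in Rrm1. Tyms had none in its whole window. Over all promoters, CCAAT was held by 24 of the 37 genes (64.9%) and by 41.7% of array genes. TTTGAA, the core letters of the cell cycle homology region of many genes expressed in G2 and M phase, was held by 5 of the 37 genes (13.5%) and by 17.3% of array genes.

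The deposited values are log2 values from robust multi-array averaging (RMA), which makes the distributions of the arrays alike, so every difference is relative to the other genes. With 1 array per group no difference has a replicate check, and no test was possible. Ctnnb1, the target of the siRNAs, was at 10.48 after control siRNA and at 9.34 after β-catenin siRNA, or 45.2% of the control signal. As a guide to scale only, probe sets that read 1 gene in common varied in their difference with a pooled SD of 0.20 over 749 genes, which leaves out variation between cultures. The median difference over all genes was -0.02. A mean of both arrays of 5.13, the median over genes, served as a mark for dim genes. All 14 measured fibroblast markers reached it, with control values from 6.60 to 12.8, against 0 of 12 macrophage, 1 of 10 endothelial, 3 of 8 melanocyte and 2 of 10 skeletal muscle markers. Between the arrays 9 of the 14 fibroblast markers were higher (64.3%, against 41.6% of all genes) and 5 lower. At least 1.2-fold, 4 were higher (28.6%, against 11.9% of all genes) and 0 lower (against 16.8% of all genes). Over the 14 markers the median difference was 0.06, with a range from -0.21 to 1.29. The largest were Lum (1.29), Dcn (0.84) and Pdgfra (0.75), and of the muscle markers Acta1 differed by -1.25. Of 18 keratinocyte markers 8 were at or above that level. The β-catenin siRNA array had higher values for 13 of the 18 (72.2%, against 41.6% of all genes) and lower values for 4. At least 1.2-fold, 7 were higher (38.9%, against 11.9% of all genes) and 4 lower (against 16.8% of all genes). Krt15, Krt6a and Lor among the lower, and Dsc3 and Epcam among the higher, had means below 5.13. Among markers at or above 5.13, only Itga6 was lower. The mean log2 value of the 18 markers was 5.34 on the control array and 5.52 on the other. Single markers ran from Krt5, which went from 7.64 to 8.65, to Itga6, which went from 7.18 to 6.39. The part of these other cell types, and of a shift among fibroblasts, in the results below was not tested.

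Most replication genes were slightly higher on the β-catenin siRNA array. Of the 44 genes, 36 (81.8%) were higher by some amount, 7 were lower and 1 had the same value on both arrays. Tk1 is counted as higher by the brighter of its 2 probe sets, while the other was lower. Among all genes measured 41.6% were higher by some amount, and among the 9973 genes whose mean of both arrays was at or above 5.13 it was 45.6%. The median difference of the 44 genes was 0.16 (log2), with an interquartile range from 0.07 to 0.24. The sizes were small. At least 1.2-fold higher were 10 of the 44 genes (22.7%), against 11.9% of all genes and 11.1% of those at or above 5.13. Tyms was the sole member at least 1.2-fold lower, against 16.8% and 13.4% of genes. No member reached 1.5-fold in either direction, a size reached by 4.58% of all genes and 4.25% of those at or above 5.13. All but Orc1 had a mean at or above 5.13. In such bulk RNA, a different share of cycling cells and a different transcript level per cycling cell cannot be told apart.

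**Figure D1:**
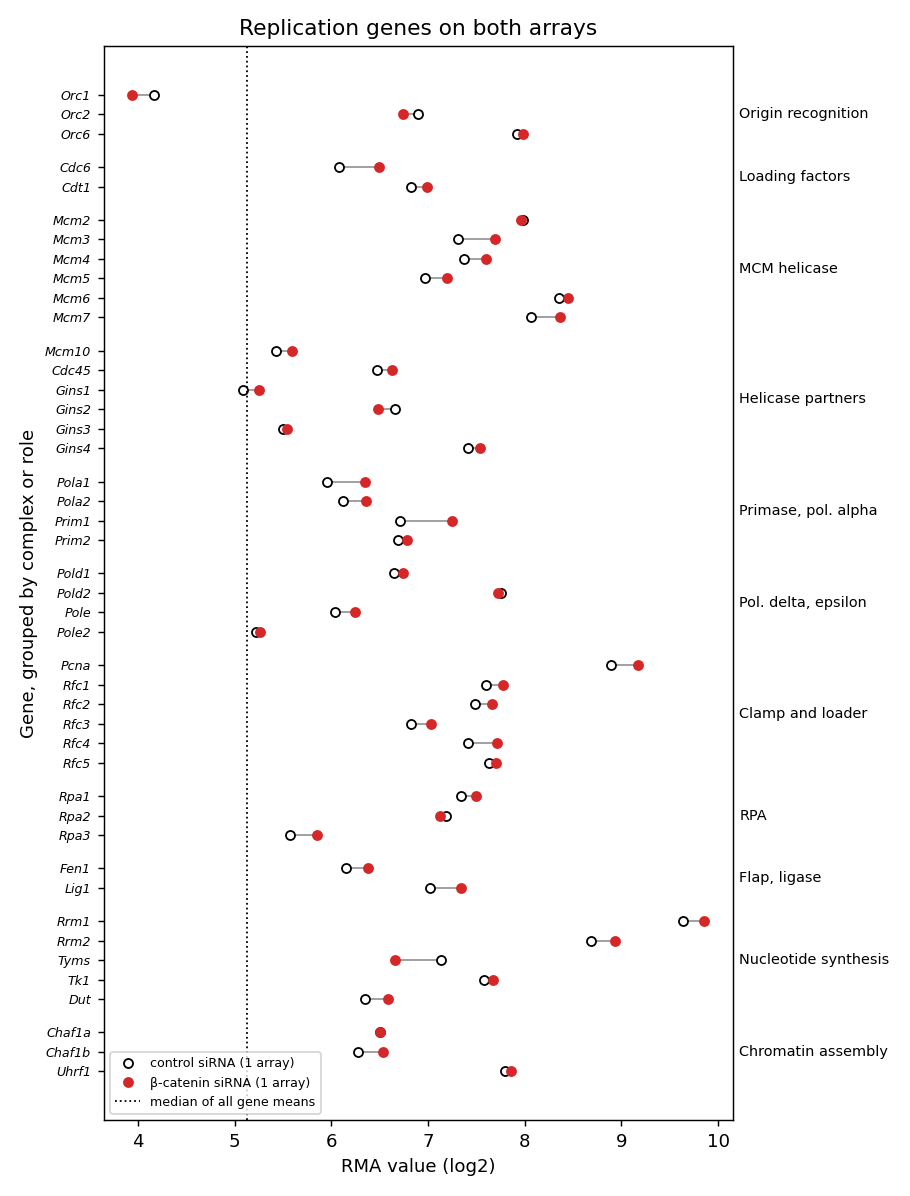
RMA values (log2, horizontal axis) of the 44 genes, grouped by complex or role, on the control siRNA array (open circles) and the β-catenin siRNA array (red circles), with the median over genes of their mean as a dotted line. The red circle lies to the right of the open circle for 36 genes, to its left for 7, and on it for Chaf1a.

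Genes of the origin recognition complex differed in sign, and none reached 1.2-fold. Orc1, the ATP-binding largest subunit, went from 4.16 after control siRNA to 3.94 after β-catenin siRNA, a log2 difference of -0.22, and both values lay below 5.13. Orc2, a core subunit, went from 6.90 to 6.74, a difference of -0.16. Orc6, the smallest subunit, went from 7.92 to 7.98. With 2 of 3 genes lower, the median was -0.16, where 10469 of all 19946 genes were lower by some amount. Without the dim Orc1 the median was -0.05, with 1 of 2 genes lower.

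Both genes for the loading factors were higher. Cdc6, an ATPase that binds the origin recognition complex and is made anew each cycle, went from 6.08 to 6.50. Its difference of 0.42, or 1.34-fold, was the second largest positive one of the 44. Cdt1, which brings the MCM ring to the origin and is destroyed once S phase begins, went from 6.83 to 6.98, a difference of 0.16.

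Of the 6 subunits of the MCM hexamer, the motor of the replicative helicase, 5 were higher and the median difference was 0.23. Mcm3 went from 7.31 to 7.69, a difference of 0.38 or 1.30-fold. Mcm7 went from 8.06 to 8.36, a difference of 0.30 or 1.23-fold. These subunits led the group. Mcm4 went from 7.37 to 7.60 and Mcm5 from 6.97 to 7.20, with differences of 0.23 and 0.22. Mcm6 differed by 0.10, from 8.35 to 8.45. Mcm2, whose protein also binds histones, was at 7.98 on the control array and 7.96 on the other, so the subunits of this one-to-one complex spanned differences from -0.02 to 0.38. The difference of Mcm2 turned to 0.01 when differences were centred on the median of all genes.

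The helicase partners were higher by less. Mcm10, which is needed to start unwinding, went from 5.43 to 5.59. Cdc45, which with GINS turns the MCM ring into the active helicase, went from 6.47 to 6.63. Differences of these genes were 0.16 each. The GINS complex is a tetramer, and its genes differed in sign. Gins1 went from 5.09 to 5.25, Gins3 from 5.50 to 5.54 and Gins4 from 7.41 to 7.54. Gins2 went the other way, from 6.66 to 6.48, a difference of -0.18. The group's median was 0.14, and none of its 6 genes reached 1.2-fold.

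The primase and polymerase α complex, which lays down the RNA-DNA primers, had the highest median of the 11 groups, 0.32, and all 4 of its genes were higher. Prim1, the catalytic primase subunit, went from 6.71 to 7.25. Its difference of 0.54, or 1.45-fold, was the largest of the 44 and ranked 536 among all 19946 genes from the highest down. Prim2, the partner subunit of primase, differed by 0.09, from 6.69 to 6.78. The catalytic polymerase subunit gene Pola1 went from 5.95 to 6.34, a difference of 0.39 or 1.31-fold. Pola2, the accessory subunit gene, went from 6.11 to 6.36, a difference of 0.24. Within either pair of subunits, the catalytic one had the larger difference.

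Genes of the polymerases that extend the strands differed little, with a median of 0.07. Pole, the catalytic subunit of leading-strand polymerase ε, went from 6.03 to 6.24, a difference of 0.21. Its second subunit gene Pole2 went from 5.22 to 5.26. Pold1, the catalytic subunit of lagging-strand polymerase δ, went from 6.64 to 6.74. The polymerase δ gene Pold2 was at 7.75 on the control array and 7.72 on the other, and no gene of this group reached 1.2-fold.

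All 6 genes of the clamp and clamp loader were higher, with a median of 0.19. Pcna, the ring that tethers polymerases and many replication partners to DNA, went from 8.89 to 9.17, a difference of 0.28 or 1.21-fold. Its 2 probe sets listed identical values on either array and were taken as 1 measurement. The loader is a pentamer that opens the ring. Rfc4 went from 7.41 to 7.71, a difference of 0.30 or 1.23-fold. Rfc3 went from 6.82 to 7.03, a difference of 0.21. The large subunit gene Rfc1 went from 7.60 to 7.77 and Rfc2 from 7.49 to 7.66, with a difference of 0.17 each. Rfc5 differed by 0.07, from 7.63 to 7.71.

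RPA, the trimer that coats single-stranded DNA, was split. Rpa1, the large subunit gene, went from 7.34 to 7.49. Rpa2, whose protein is phosphorylated under replication stress, went from 7.18 to 7.12, a difference of -0.06. Rpa3 went from 5.58 to 5.85, a difference of 0.27 or 1.21-fold, and its second probe set differed by 0.20. Both genes for joining Okazaki fragments were higher. Fen1, the flap nuclease, went from 6.15 to 6.38, a difference of 0.22. Lig1, the ligase that seals the nick, went from 7.02 to 7.34, a difference of 0.31 or 1.24-fold.

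**Figure D2:**
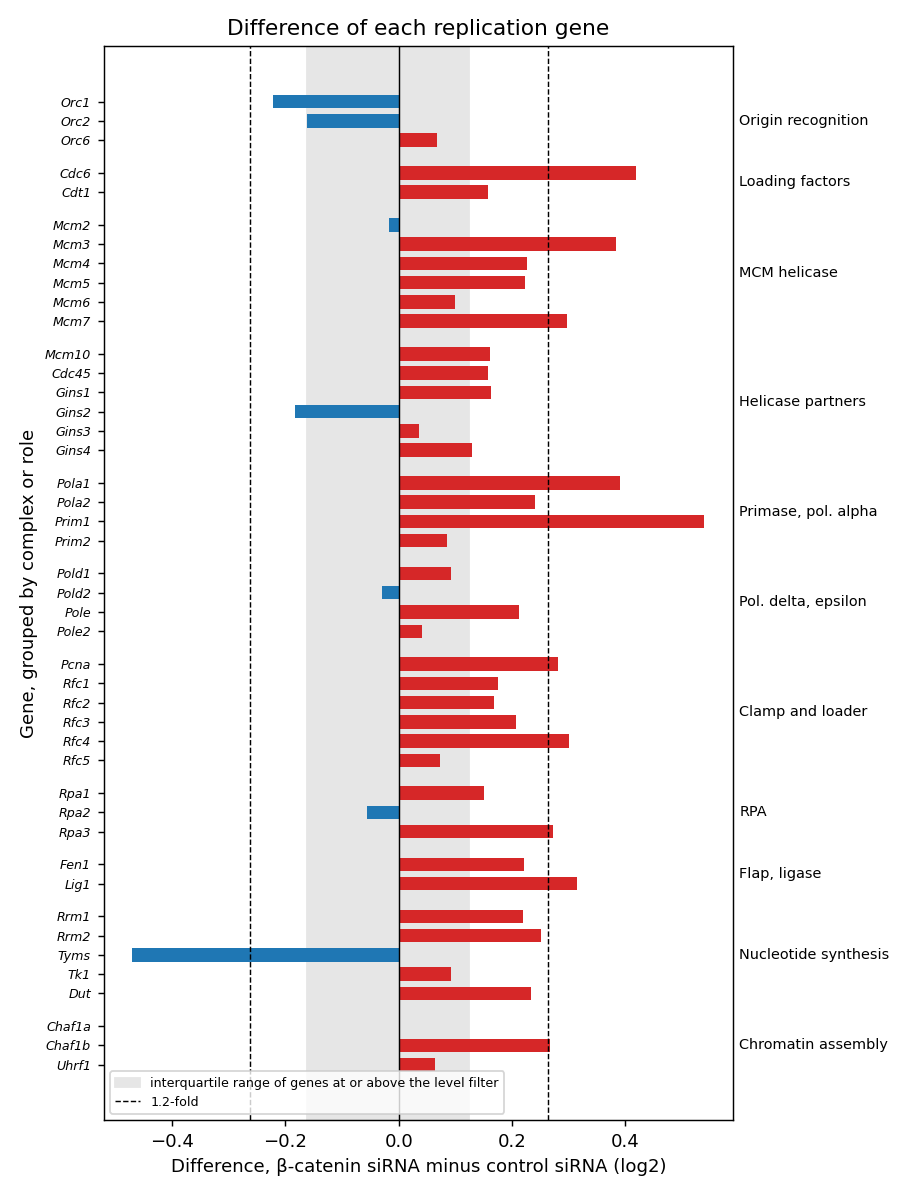
Difference in log2 RMA value, β-catenin siRNA minus control siRNA (1 array each), of the 44 genes grouped by complex or role; dashed lines mark 1.2-fold and the grey band the interquartile range of genes with a mean at or above 5.13 (-0.16 to 0.12). Bars of 10 genes pass the right-hand line and the bar of Tyms alone passes the left-hand one.

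Deoxynucleotide synthesis genes held the largest contrast within a group. Tyms encodes thymidylate synthase, which makes dTMP from dUMP with a folate cofactor. It went from 7.13 to 6.66, a difference of -0.47 or 1.39-fold lower, and ranked 913 among all genes from the lowest up. The 4 other genes were higher by the brightest probe set of each, which for Tk1 differed in sign from its other probe set. Rrm1 and Rrm2 encode the subunits of ribonucleotide reductase, which makes deoxynucleotides from ribonucleotides. Rrm1 went from 9.64 to 9.86, a difference of 0.22. Rrm2, the subunit limiting in cycling cells, went from 8.68 to 8.94, a difference of 0.25. Dut, whose enzyme turns dUTP into the dUMP that Tyms uses, went from 6.35 to 6.58, a difference of 0.23. Tk1, the thymidine kinase of the salvage route to dTMP, went from 7.58 to 7.67, a difference of 0.09, but its second probe set, at 6.57 and 6.53, differed by -0.04. The annotation assigns both probe sets to Tk1, and which of them reads the gene was not tested, so its direction is not settled.

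Chromatin assembly genes differed among themselves. Chaf1b, the middle subunit of the histone chaperone CAF-1, went from 6.27 to 6.54, a difference of 0.27, just past the 1.2-fold line. Chaf1a, the large subunit that binds PCNA, was listed at 6.51 on both arrays. Equal values to the last digit were found for 1880 of the 28944 probe sets, 195 of them at or above 5.13. Uhrf1, which guides the maintenance methyltransferase to newly copied DNA, went from 7.79 to 7.86.

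Genes within a complex were about as unlike one another as the 44 genes were overall. The SD of the differences over all 44 genes was 0.18, and the SD pooled within the 11 groups was 0.17. Both are close to the 0.20 between probe sets of a gene. That SD also takes in the dimmer probe sets of a gene, whereas the 44 genes enter by their brightest one. Across the 44 genes the difference was weakly related to the mean level (Pearson's r = 0.17, Spearman's rho = 0.05). That is a description over genes that share the same 2 arrays. Of the 14 genes holding the E2F-type words 13 were higher (92.9%) and Orc1 was lower, with a median of 0.18. Of the 23 genes with a promoter entry and without the words 17 were higher (73.9%), with a median of 0.16. Among all genes measured 41.6% were higher. Of other array genes at or above 5.13, 49.4% of 332 with the words and 45.0% of 7746 without them were higher. Whether the words go with the difference was not tested.

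**Figure D3:**
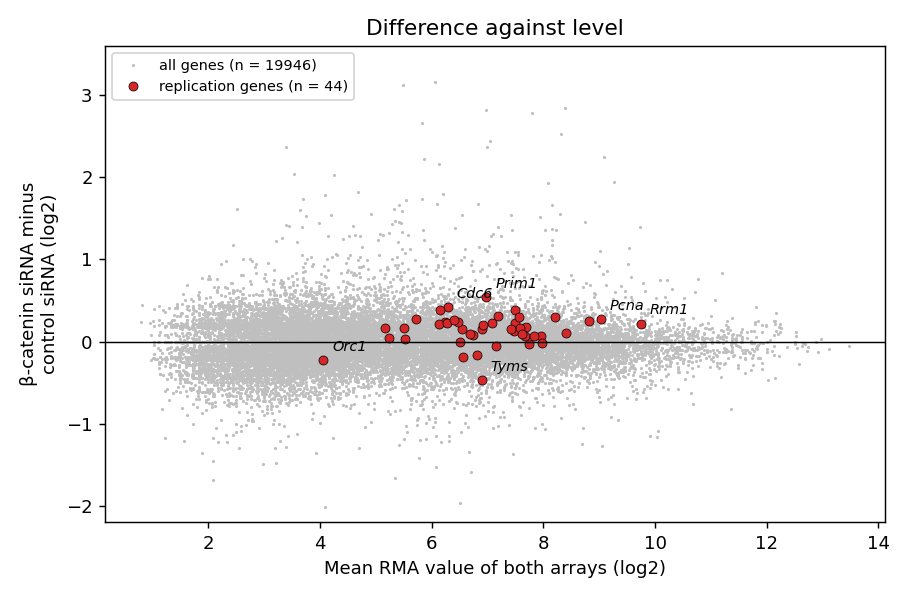
Difference in log2 RMA value (β-catenin siRNA minus control siRNA) against the mean of both arrays, for all 19946 genes (grey) and the 44 replication genes (red). The red points lie within the grey cloud, mostly above 0, between -0.47 (Tyms) and 0.54 (Prim1).

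Other genes of DNA replication were less uniformly higher. Of 30 further replication factors, 18 were higher (60.0%, against 41.6% of all genes) and 12 lower, with a median of 0.07. At least 1.2-fold, 7 were higher (23.3%) and 0 lower. The share at least 1.2-fold higher was 22.7% of the 44 genes and 11.9% of all genes. Gmnn, which encodes geminin, the inhibitor of Cdt1, went from 3.50 to 4.16, or 1.58-fold higher, but both values lay below 5.13. Tipin, of the fork protection complex, went from 6.94 to 7.40, a difference of 0.46. Atad5, which unloads PCNA, went from 4.64 to 5.08, a difference of 0.44, also with both values below 5.13. Among 13 measured further genes of histone supply and chromatin copying, 12 were higher (92.3%, against 41.6% of all genes) and 1 lower. Their median was 0.12. At least 1.2-fold, 2 were higher (15.4%, against 11.9% of all genes) and 0 lower. The histone chaperone gene Nasp differed by 0.33, the histone acetyltransferase gene Hat1 by 0.32 and Dnmt1, the maintenance methyltransferase gene, by 0.26.

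Genes upstream in nucleotide metabolism did not show the direction of the 44. Of 27 measured (30 listed) genes for purine, pyrimidine and one-carbon synthesis, 13 were higher (48.1%, against 41.6% of all genes) and 14 lower. Their median was -0.02. At least 1.2-fold, 4 were higher (14.8%, against 11.9% of all genes) and 4 lower (against 16.8% of all genes). Mthfd2, a mitochondrial enzyme of the folate cycle, went from 9.14 to 8.65, a difference of -0.49 or 1.40-fold lower. Ctps and Ctps2 encode CTP synthases and differed by 0.42 and 0.37.

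Regulators of the G1/S step were mostly higher by some amount. Of 25 genes, 18 were higher (72.0%, against 41.6% of all genes) and 7 lower, with a median of 0.10. At least 1.2-fold, 7 were higher (28.0%, against 11.9% of all genes) and 2 lower (against 16.8% of all genes). Rbl2, the retinoblastoma-like protein p130 that represses E2F targets in resting cells, went from 6.88 to 7.50, a difference of 0.62 or 1.54-fold. Tfdp2, a dimer partner of E2F proteins, differed by 0.52, and Ccne2, one of the E-type cyclin genes, by 0.47, from 4.83 to 5.30. The control value of Ccne2 lay below 5.13. E2f1, the founding member of the E2F family, differed by -0.08, and the other E-type cyclin gene Ccne1 by 0.07. Mitosis genes were higher in 25 of 31 cases (80.6%), beside 81.8% of the replication genes and 41.6% of all genes. Their median was 0.13 beside the 0.16 of the replication genes. At least 1.2-fold, 7 mitosis genes were higher (22.6%, beside 22.7% of the replication genes and 11.9% of all genes). At least 1.2-fold lower were 0, against 16.8% of all genes. Mki67, the proliferation marker, differed by 0.53, Smc4, a condensin subunit gene, by 0.41 and Ndc80, a kinetochore gene, by 0.33. Whether these lists differ from the replication genes could not be tested with 1 array per group.

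**Figure D4:**
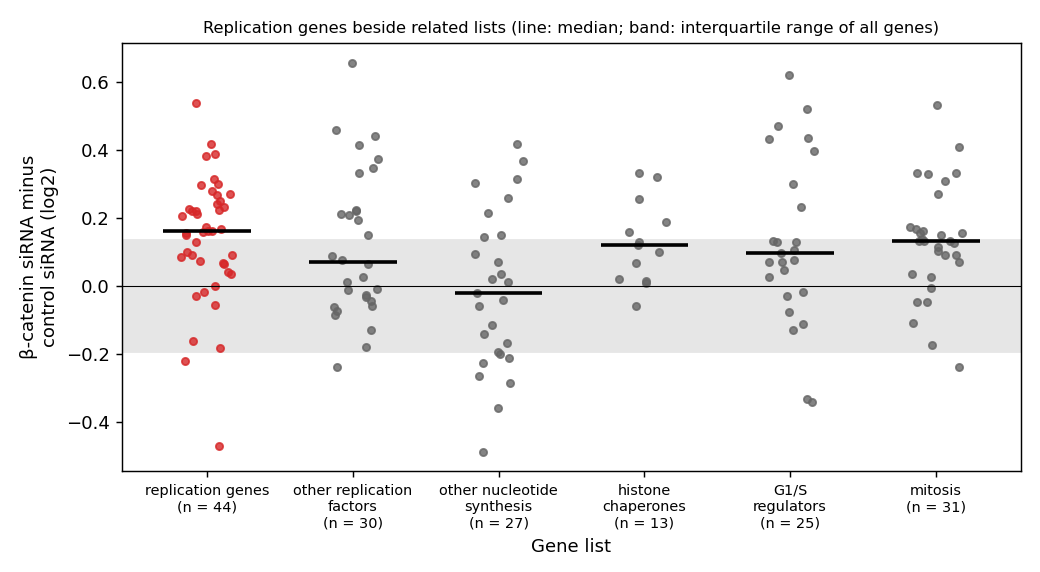
Differences in log2 RMA value (β-catenin siRNA minus control siRNA) of the 44 replication genes (red) and of 5 related lists (grey), 1 point per gene, with the median as a black line and the interquartile range of all genes (-0.19 to 0.14) as a band. The medians run from 0.16 for the replication genes to -0.02 for other nucleotide synthesis genes.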

How the data were processed

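Expression was measured on 2 Affymetrix whole-transcript arrays, 1 per group. The deposited log2 values come from RMA, per the submitters' processing notes; that they are log2 was judged from their range of 0.485 to 13.5. The sources used here do not give the software, its version or filters. RMA removes overall differences in RNA yield and shrinks differences of dim probe sets, and 1 array per group limits the precision of every value.

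The table lists 28944 probe sets: 21797 have 1 gene symbol in the platform annotation, 1613 several and 5534 none. Current symbols came from RefSeq (GRCm38.p6) by gene ID for 21698. A gene took the probe set whose mean over both arrays was highest. The control value was subtracted from the β-catenin siRNA value, with no filter on level. Sizes of 1.2-fold (0.26 on the log2 scale) and 1.5-fold were the only criteria. No test was run, so no p-value is given. The genes, lists, sizes and alternatives were chosen with earlier results of these data known. All 44 genes were named; of each related list, the 3 largest absolute differences, and E2f1 and Ccne1. Counting was tested on simulated data. Python 3.11.15, pandas 2.3.3, numpy 2.4.6 and statsmodels 0.14.6 were used.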

Additional observations from a re-analysis of the deposited data

How the results depend on the processing

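The counts and the median over the 44 genes kept their direction under 6 alternatives: averaging a gene's probe sets, 2 filters on level, median centring, lowess centring (span 0.3) and adding probe sets with several symbols, of which none named a replication gene. Most of these could change little. Either filter left 43 genes, averaging bears on Pcna, Rpa3 and Tk1 alone, and median centring adds 0.02 to every gene. A seventh alternative, chosen after seeing the data, left out Chaf1a, Tk1 and Rpa3. Over these, between 34 and 38 genes were higher and the median was 0.16 to 0.18. The count at least 1.2-fold higher ranged from 9 to 12, and Tyms alone was at least 1.2-fold lower in each. The one gene to change sign was Mcm2, from -0.02 to 0.01 with either centring. No single gene moved by more than 0.07, but values near 0 changed by over 1.5 times, those of Gins3, Pold2, Pole2, Rpa2 and Chaf1a with centring, and Tk1 was 0.03 in place of 0.09 with averaged probe sets. Under both filters, which drop Orc1, the median of the origin recognition genes was -0.05 in place of -0.16. Without Chaf1a, Tk1 and Rpa3, the RPA median was 0.05 in place of 0.15 and the chromatin assembly median 0.17 in place of 0.06. None of these settings stands in for replicate arrays, and with 1 array per group no replicate could be left out. No paired analysis was possible because each group had 1 array. Detection calls were not used here, so dim values such as those of Orc1 and Gmnn have no measure of signal over background.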

Other observations

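Outside the 44 genes, the E2F-type words were held in the promoters of 453 array genes, of which 50.1% were higher on the β-catenin siRNA array, with a median difference of 0.0036. Among the 15129 other array genes with a promoter entry and without the words, 41.3% were higher and the median was -0.02. At or above a mean of 5.13 the shares were 49.4% of 332 genes and 45.0% of 7746. The 14 replication genes with the words had 92.9% higher, and the 7 with no promoter entry had 6 of 7 higher. These are descriptions of 2 arrays, with no test.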
